A study of Mus musculus with 12 samples.

Results

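The 2'-5' oligoadenylate synthetase (OAS) family was followed in C57MG cells, a mouse mammary epithelial line, after treatment with Rspo2, Wnt3a or both. It was represented by 9 genes of the 22410 distinct gene symbols on the array: Oas1a, Oas1b, Oas1c, Oas1f, Oas1g, Oas2, Oas3, Oasl1 and Oasl2. The genes were chosen by family name, and attention was drawn to the family by its measured levels, the fall of Oas2 with the combination in particular. The values against BSA are therefore given as a description, with no p-value. All 11 probes bearing one of the 9 symbols were examined, and 8 of them passed the filter for tests. The array held 41174 distinct probes, and 22751 of these were tested.

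Each of the 4 groups had 3 monolayers, one array per monolayer, and all groups were kept for 24 h in DMEM without supplements. The control group received bovine serum albumin (BSA), the carrier protein of the ligands. The second group received 100 ng/ml recombinant human Rspo2, the third received 100 ng/ml recombinant mouse Wnt3a, and the fourth received both at these doses (the combination). Wnt3a is a secreted ligand that stabilizes β-catenin, and R-spondins are secreted proteins that potentiate Wnt signaling. All arrays came from this 1 cell line at 1 time point, so p-values measured the spread between monolayers only.

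OAS enzymes are sensors of double-stranded RNA in the interferon response. On binding such RNA, the active enzymes (the products of Oas1a, Oas1g, Oas2 and Oas3) join ATP into short 2'-5' linked oligoadenylates, which act as a second messenger for RNA decay. Mouse Oas1b, whose full-length form restricts flaviviruses, and Oasl1, which restrains translation of Irf7 mRNA, act without making oligoadenylates, whereas mouse Oasl2 retains the enzyme activity. The genes are classical interferon targets, switched on through a complex with Stat2 and Irf9 that binds the interferon-stimulated response element (ISRE).

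In the GRCm38.p6 annotation the 9 genes lay on chromosome 5 in 2 groups. Oasl2 (chr5:114896926-114912245) and Oasl1 (chr5:114923143-114937911) were neighbors. Downstream lay Oas2 (chr5:120730333-120749886), Oas3 (chr5:120753098-120777684), Oas1c (chr5:120800194-120812540) and Oas1b (chr5:120812635-120824163), followed by Oas1f (chr5:120847367-120857986), Oas1g (chr5:120876142-120887613) and Oas1a (chr5:120896256-120907544). That annotation lists Oas1b as a transcribed pseudogene and the other 8 genes as protein coding. By their accessions, 10 of the 11 probes led to the symbol printed on the array. The probe of Oas1b was named by the array's symbol only. Cross-hybridization between these related genes was not tested.

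RefSeq promoter sequences were at hand for 7 of the members, all but Oas2 and Oas1b. The ISRE core, searched on both strands as GAAA, any 2 bases and GAAA again from 250 bases before to 50 bases after the start, was found in 4 of the 7 (Oas1a, Oas1c, Oas1g and Oas3) and in 3.44% of all 32851 promoters of the same length. Those 4 are shown for the 120 bases before the start of the RefSeq transcript, 5' to 3' on the gene's strand in GRCm38.p6, with the ISRE matches in capitals. The coordinates are chr5:120777660-120777779 for Oas3, chr5:120812515-120812634 for Oas1c, chr5:120887614-120887733 for Oas1g and chr5:120907526-120907645 for Oas1a, all on the minus strand. For Oas3, Oas1c and Oas1a the start used lay inside the gene as annotated above, so these windows run into the gene. In Oas1a nearly all bases of the ISRE matches lay within the annotated gene.
Oas3: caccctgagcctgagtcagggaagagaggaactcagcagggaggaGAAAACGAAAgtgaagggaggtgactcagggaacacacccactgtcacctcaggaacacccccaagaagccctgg
Oas1c: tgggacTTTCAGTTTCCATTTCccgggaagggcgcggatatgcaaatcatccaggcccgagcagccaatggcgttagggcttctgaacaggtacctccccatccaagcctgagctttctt
Oas1g: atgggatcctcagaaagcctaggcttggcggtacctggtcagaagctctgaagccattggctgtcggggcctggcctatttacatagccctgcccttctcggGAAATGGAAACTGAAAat
Oas1a: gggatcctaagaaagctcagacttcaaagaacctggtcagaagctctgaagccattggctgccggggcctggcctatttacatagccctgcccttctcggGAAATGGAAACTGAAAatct

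In Oas1a, Oas1c and Oas1g there were 2 matches that overlapped, so the capitals run together. The windows of Oas1a and Oas1g shared 108 of 122 aligned positions (88.5%), and in both the overlapping matches ended close to the start used for the window. Those of Oas1a and Oas1c shared 44.5%, and those of Oas1a and Oas3 shared 45.6%. The STAT dimer core TTCNNNGAA was found only in Oas1a among the 7 members (8.3% of all promoters), and the TCF core CTTTGA likewise only in Oas1a (16% of all promoters), on the other strand and overlapping the STAT core. No ISRE core of these letters was in the windows of Oasl1, Oasl2 or Oas1f, which says nothing of sites elsewhere or of other spelling.

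Array quality bears on the values as follows. Between 51.3% and 64.2% of probes were well above background on an array, and the 75th percentile of intensity was between 773.9 and 1146. The arrays were spread over 3 slides. The first slide carried BSA arrays 1 to 3 together with Rspo2 array 1, slide 2 held Rspo2 arrays 2 and 3 with Wnt3a arrays 1 and 2, and slide 3 held Wnt3a array 3 with the 3 combination arrays. No slide held BSA beside Wnt3a or the combination, or Rspo2 beside the combination. For these contrasts slide and treatment can be separated only through a fit with slide as a term. That fit ties slide 1 to slide 2 through Rspo2, with 1 array on slide 1. It ties slide 2 to slide 3 through Wnt3a, with 1 array on slide 3. Of the marker lists, all 5 mesenchymal markers and 3 of 4 myoepithelial markers (Krt14, Acta2 and Trp63) passed the background flag on all 12 arrays. Of the 5 luminal epithelial markers only Krt8 did, and Cdh1, which encodes E-cadherin, was above background on 0 arrays. Leukocyte markers reached that level for 2 of 7 genes, Cd68 among them, with Ptprc, the pan-leukocyte marker, above background on 1 array, and dendritic cell markers for 0 of 3. Endothelial markers did so for 1 of 3 (Cdh5). The summed linear level of the leukocyte markers, relative to each array's 75th percentile, ranged over the BSA arrays from 0.455 to 0.481, over the Rspo2 arrays from 0.479 to 0.532, over the Wnt3a arrays from 0.411 to 0.509 and over the combination arrays from 0.417 to 0.482. That of the luminal markers was 0.133 to 0.252, 0.12 to 0.16, 0.0758 to 0.106 and 0.0677 to 0.179 in the same order. The myoepithelial sum was 132 to 140 on the BSA arrays, 170 to 192 after Rspo2, 184 to 205 after Wnt3a and 219 to 257 after the combination. The endothelial sum was 2.43 to 2.59 on the BSA arrays, 1.83 to 1.88 after Rspo2, 1.64 to 1.85 after Wnt3a and 1.63 to 1.74 after the combination. Both sums on the treated arrays lay apart from the BSA arrays, as several OAS levels did. Each sum was mostly that of 1 gene. Mean log2 levels with BSA were 6.96 for Acta2 against 3.35 for Krt14, and 1.30 for Cdh5. Pecam1 was above background on 1 array and Kdr on 0. With the combination the log2 change from BSA was 0.78 for Acta2, 1.24 for Krt14, 0.22 for Krt5 and -0.40 for Trp63. The myoepithelial and endothelial sums therefore do not stand for their whole lists. The luminal sum of the Wnt3a arrays also lay below every BSA array. The log2 change of Krt8 was -0.23 with Rspo2, -0.69 with Wnt3a and -1.15 with the combination. The mesenchymal sum was 229 to 251 with BSA and 239 to 241 with the combination. Its markers then changed by -0.07 (Col1a1), -0.19 (Col1a2), 0.17 (Vim), -1.37 (Pdgfra) and -0.6 (Pdgfrb). The part of any marker list in the results below was not tested.

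Levels below are log2 intensities relative to each array's 75th percentile, and a level of one probe cannot be set against that of another. Each of the 8 tested probes was marked by the scanner software as well above background on every one of the 12 arrays, and none of them was saturated. The RNA was of whole monolayers, in which fewer cells holding a transcript and less of it per cell cannot be told apart.

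**Figure D1:**
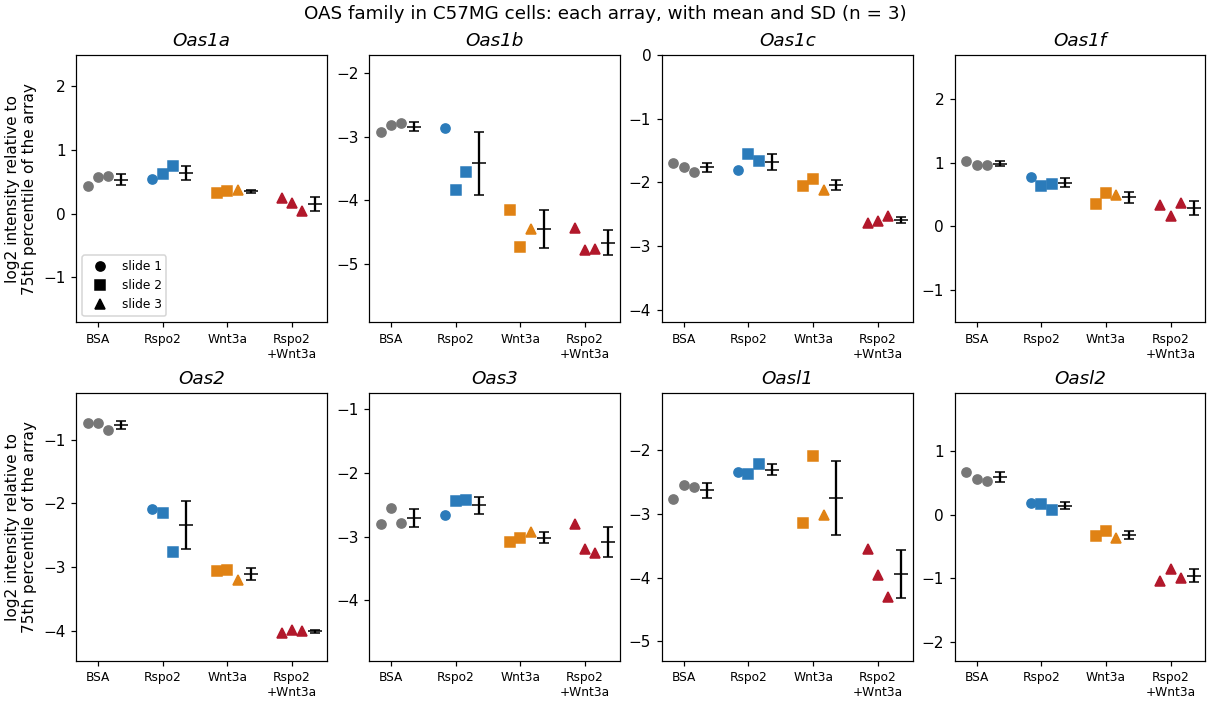
Log2 intensity relative to each array's 75th percentile (y axis, the same span in every panel) for the tested probe of 8 OAS genes in the 4 treatment groups (x axis). Each point is 1 array with its shape giving the slide, and the bar beside each group is the mean with the SD (n = 3). Oas2 and Oasl2 stepped down from BSA through Rspo2 and Wnt3a to the combination, while Oasl1 was lowest with the combination and spread widely with Wnt3a.

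Oas2, a synthetase built of 2 OAS units, fell furthest. Its levels were -0.73, -0.73 and -0.84 on the BSA arrays and -2.09, -2.15 and -2.77 on the Rspo2 arrays. With Wnt3a they were -3.06, -3.04 and -3.21, and with the combination -4.04, -3.99 and -4.00. The 4 groups did not overlap, and the combination arrays were lowest of all. Relative to BSA the level was 2.97-fold lower with Rspo2 (log2 change -1.57 ± 0.15, SE), 5.05-fold lower with Wnt3a (-2.34 ± 0.15) and 9.47-fold lower with the combination (-3.24 ± 0.15). The log2 difference of the combination was -0.91 ± 0.15 from Wnt3a alone and -1.67 ± 0.15 from Rspo2 alone, also as a description. With normexp background correction the changes from BSA were smaller, at -0.81, -1.77 and -2.35 in the same order, and only that with the combination was called. Wnt3a against Rspo2, a contrast without BSA or combination arrays, gave -0.76 ± 0.15 (limma, adjusted p = 0.035). That adjusted p in limma rose to 0.177 when the fit included slide and to 0.051 when it included replicate number. With normexp background correction it was 0.42, and with quantile normalization 0.0847. Within slide 1, Rspo2 array 1 differed from the BSA mean by -1.32. Within slide 2 the Wnt3a arrays differed from the Rspo2 arrays by -0.59, and within slide 3 the combination differed from Wnt3a array 3 by -0.80.

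A second Oas2 probe (A_52_P587071) was near background. It was well above background on 1 of 12 arrays, BSA array 1, and was not tested. BSA array 1 read -4.33. BSA arrays 2 and 3 read -5.08 and -4.94, under the lowest signals well above background on those arrays (-4.76 and -4.90). The BSA level was thus not measured on all 3 arrays, and no fold change or bound is given.

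Oasl2, the enzymatically active OAS-like gene, followed the same order with a smaller span. Its levels were 0.67, 0.56 and 0.53 with BSA and 0.18, 0.17 and 0.07 with Rspo2. They were -0.34, -0.26 and -0.37 with Wnt3a and -1.04, -0.85 and -1.0 with the combination. No array of one group crossed into another. Relative to BSA the log2 change was -0.45 ± 0.08 with Rspo2, -0.91 ± 0.08 with Wnt3a and -1.55 ± 0.08 with the combination, the last a 2.92-fold lower level. The combination lay 1.56-fold below Wnt3a (-0.64 ± 0.08, limma, adjusted p = 0.000951) and 2.14-fold below Rspo2 (-1.10 ± 0.08, limma, adjusted p = 6.26e-06). Wnt3a lay below Rspo2 by a log2 difference of -0.46 ± 0.08 (limma, adjusted p = 0.0179). These tests share arrays with the contrast that drew attention to the family. With slide as a term, the adjusted p in limma was 0.0452 for the combination against Wnt3a and 0.0101 against Rspo2, but 0.12 for Wnt3a against Rspo2. With normexp background correction it was 0.0985, 0.000838 and 0.418 in the same order. With replicate number as a term it was 0.0546 in limma for Wnt3a against Rspo2.

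Oasl1, the OAS-like gene without enzyme activity, was lowest with both ligands. The BSA arrays read -2.76, -2.54 and -2.58, and the Rspo2 arrays -2.34, -2.37 and -2.21, all slightly above BSA. The Wnt3a arrays were spread, at -3.14, -2.09 and -3.02, so that array 2 was higher than every BSA array and arrays 1 and 3 were lower than every BSA array. The combination arrays read -3.55, -3.96 and -4.31, below every other array. Relative to BSA the log2 change was 0.32 ± 0.25 with Rspo2, -0.13 ± 0.25 with Wnt3a and -1.32 ± 0.25 with the combination. Without Wnt3a array 2 the change with Wnt3a was -0.46. Against Wnt3a the combination was 2.28-fold lower (-1.19 ± 0.25, limma, adjusted p = 0.0249) and against Rspo2 it was 3.1-fold lower (-1.63 ± 0.25, limma, adjusted p = 0.00138).

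The interaction, which is the change with the combination less the changes with each ligand alone, was -1.5 ± 0.36 for Oasl1 (limma, adjusted p = 0.0322). It is built from the contrasts with BSA that were used to choose the family, so its p-values are a description only. The combination was thus 2.83-fold below the product of the 2 separate changes. This call and that against Wnt3a depended on single arrays. Without Wnt3a array 2, the difference from Wnt3a was -0.86, under 2-fold. Without combination array 2 or 3 its adjusted p in limma was 0.0936 or 0.0933. The adjusted p of the interaction in limma rose to between 0.0576 and 0.0783 in 7 of the 12 fits that left out an array. Those were without BSA array 1, 2 or 3, Rspo2 array 2 or 3, or combination array 2 or 3. With slide as a term the adjusted p in limma was 0.307 for the interaction, 0.421 against Wnt3a and 0.21 against Rspo2.

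The 4 tested genes of the Oas1 cluster differed among themselves. Oas1b, the flavivirus resistance gene of the cluster, had levels of -2.92, -2.82 and -2.79 with BSA. The Rspo2 arrays read -2.87, -3.84 and -3.55, so that array 1, the one on the BSA slide, was at the BSA level and the other two were lower. It was lower still with Wnt3a (-4.15, -4.74 and -4.45) and with the combination (-4.44, -4.78 and -4.77), and these 2 groups overlapped. The log2 change from BSA was -0.57 ± 0.22 with Rspo2, -1.60 ± 0.22 with Wnt3a and -1.82 ± 0.22 with the combination. The combination was 2.37-fold below Rspo2 (-1.24 ± 0.22, limma, adjusted p = 0.00327, and 0.125 with slide as a term), a difference of -0.97 without Rspo2 array 1. Against Wnt3a the difference of -0.22 missed the threshold, with a 95% interval from -0.71 to 0.28. Within slide 1, Rspo2 array 1 differed from the BSA mean by -0.02, and the Rspo2 arrays of slide 2 differed from that of slide 1 by -0.82. With slide as a term the changes from BSA were -0.02 with Rspo2, -0.78 with Wnt3a and -0.99 with the combination.

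Oas1c, an Oas1 paralog, was lowest with the combination. Its levels were -1.70, -1.75 and -1.84 with BSA, -1.81, -1.56 and -1.67 with Rspo2, -2.05, -1.95 and -2.12 with Wnt3a, and -2.63, -2.60 and -2.53 with the combination. Rspo2 overlapped BSA, and the combination overlapped no other group. Against Wnt3a the combination was 1.46-fold lower (-0.55 ± 0.08, limma, adjusted p = 0.00439) and against Rspo2 it was 1.87-fold lower (-0.90 ± 0.08, limma, adjusted p = 4.36e-05). Its interaction was -0.63 ± 0.12 (limma, adjusted p = 0.0151, and 0.248 with slide as a term). As for Oasl1, the p-values of this interaction are a description only. Leaving aside Oas2, for which no test is given, Oas1c and Oasl1 were the 2 members whose negative interaction passed the adjusted p.

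Oas1f had levels of 1.03, 0.96 and 0.97 with BSA and 0.77, 0.63 and 0.66 with Rspo2. With Wnt3a they were 0.36, 0.52 and 0.50, and with the combination 0.34, 0.16 and 0.37. All treated arrays were below all BSA arrays, and the combination overlapped Wnt3a. The change from BSA was -0.30 ± 0.08, -0.53 ± 0.08 and -0.70 ± 0.08 in the same order. The combination was 1.32-fold below Rspo2 (-0.40 ± 0.08, limma, adjusted p = 0.00698, and 0.172 with slide as a term), and its difference from Wnt3a was -0.17, with a 95% interval from -0.36 to 0.01.

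Oas1a, an active synthetase, differed little between groups. Its levels were 0.44, 0.57 and 0.60 with BSA, 0.54, 0.63 and 0.75 with Rspo2, 0.32, 0.36 and 0.37 with Wnt3a, and 0.25, 0.17 and 0.04 with the combination. Rspo2 overlapped BSA and the combination lay below every other array. The combination was 1.4-fold below Rspo2 (-0.49 ± 0.08, limma, adjusted p = 0.0025, and 0.0937 with slide as a term). Against Wnt3a the difference was -0.20 (limma, adjusted p = 0.244), with a 95% interval from -0.38 to -0.01 before adjustment.

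Oas3, the synthetase with 3 OAS units, had a change of -0.37 ± 0.13 from BSA with the combination, close to that of Oas1a (-0.39 ± 0.08). Its tested probe (A_52_P516296) read -2.80, -2.55 and -2.79 with BSA and -2.66, -2.44 and -2.42 with Rspo2. With Wnt3a it read -3.09, -3.03 and -2.93, and with the combination -2.81, -3.19 and -3.26. Combination array 1 lay just below the lowest BSA array and above all Wnt3a arrays, which the other two combination arrays did not. The combination was 1.5-fold below Rspo2 (-0.58 ± 0.13, limma, adjusted p = 0.0103, and 0.113 with slide as a term), and the difference from Wnt3a was -0.07, with a 95% interval from -0.35 to 0.21. Its other probe (A_51_P472867) and the probe of Oas1g, an active synthetase whose promoter window is shown above, were well above background on 0 of 12 arrays. No level is given for them.

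**Figure D2:**
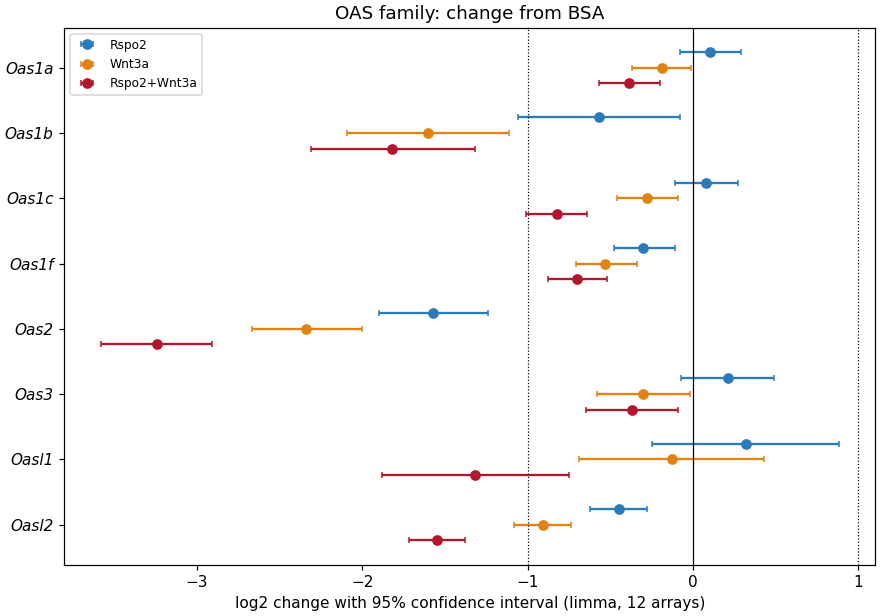
Log2 change from BSA (x axis) of the 8 tested OAS probes (y axis) with Rspo2, Wnt3a and the combination; points are limma estimates over 12 arrays, bars are 95% confidence intervals, and dotted lines mark a 2-fold change. Oas2 moved furthest, to -3.24 with the combination, and Oasl1 lay near 0 with each single ligand and at -1.32 with both.

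Probes were called in limma where the adjusted p was under 0.05 and the difference 2-fold or more. By this rule 1 of the 8 tested probes was lower with Rspo2 (Oas2), beside 0.620% of all tested probes, and 0 were higher, beside 0.101%. With Wnt3a, 2 were lower (Oas2 and Oas1b), beside 2.11%, and 0 higher, beside 0.404%. With the combination, 4 were lower (Oas2, Oas1b, Oasl2 and Oasl1), beside 3.79%, and 0 higher, beside 1.28%. Nothing is read from these counts, since the contrasts with BSA were used to choose the family. The median log2 change of the 8 probes was -0.11 with Rspo2, -0.41 with Wnt3a and -1.07 with the combination, against 0.01, 0.00 and 0.04 over all tested probes. Under Rspo2, 4 of the 8 changes were negative, and that of Oas1c was too (-0.02) when the percentile was taken over the probes above background on all arrays, as it was (-0.05) with slide as a term. That of Oas1b turned to 0.21 with normexp. Under Wnt3a all 8 were, but scaling to the array median turned Oas1a, Oas1c, Oas3 and Oasl1 to 0.14, 0.05, 0.02 and 0.20, with the median of all probes then at 0.33, and quantile normalization turned Oasl1 to 0.10. Under the combination all 8 were negative in every alternative. Of the 4 probes called with the combination, Oas2 and Oasl2 were also called with slide as a term and with normexp background correction, and Oas1b and Oasl1 were called in neither.

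**Figure D3:**
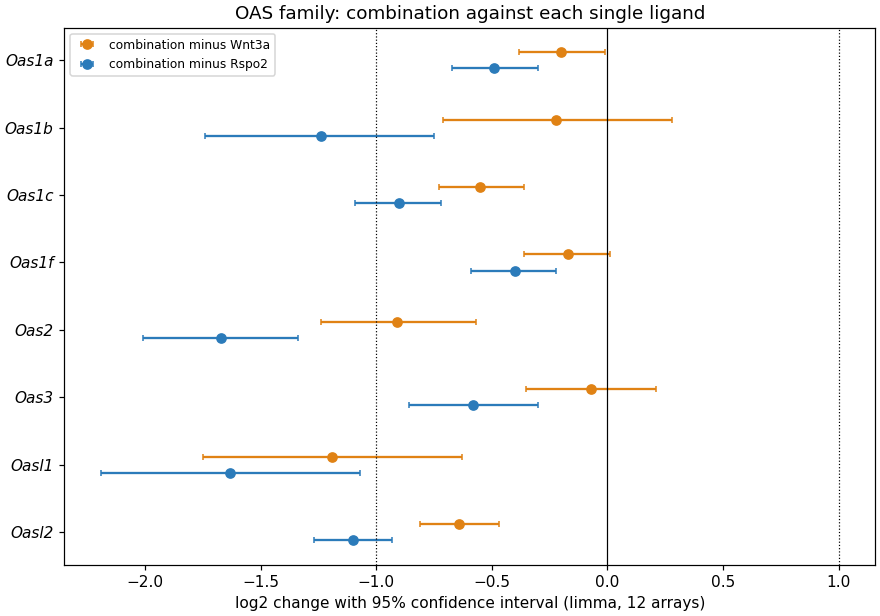
Log2 difference of the combination from Wnt3a alone and from Rspo2 alone (x axis) for the 8 tested OAS probes (y axis); points are limma estimates over 12 arrays, bars are 95% confidence intervals, and dotted lines mark a 2-fold change. All 8 points are below 0 in both contrasts, and those of Oas1b, Oas1f and Oas3 against Wnt3a have intervals that include 0.

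The combination against Wnt3a asked whether Rspo2 altered the family when given together with Wnt3a. Oas2 is left out of the counts, since its levels with the combination drew attention to the family. For the other probes too, the combination arrays entered a contrast used to choose the family. The counts here, against Rspo2 and in the interaction are therefore a description only. Of the other 7 probes, 3 passed the adjusted p alone on the lower side, Oasl1, Oasl2 and Oas1c, beside 2.49% of all tested probes. With the 2-fold requirement 1 was lower (Oasl1), beside 0.334%, and 0 were higher, beside 0.413%. With slide as a term 1 of the 7 passed the adjusted p (Oasl2), and with normexp background correction 0 did. The median difference of the 8 probes was -0.38, against 0.00 over all probes. The difference was negative for all 8 probes, except that Oas3 turned to 0.02 without combination array 3.

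Against Rspo2 alone, again without Oas2, all 7 probes were lower with the combination at an adjusted p under 0.05, beside 9.81% of all tested probes. With slide as a term 2 of the 7 passed (Oas1c and Oasl2), and with normexp background correction 1 did (Oasl2). With the 2-fold requirement 3 were lower (Oasl1, Oas1b and Oasl2), beside 1.70%, and 0 were higher, beside 0.976%. Of these, Oasl2 was also called with slide as a term, and none of the 3 with normexp. The median over the 8 probes was -1.0, against 0.03.

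Wnt3a and Rspo2 were compared at the same dose of 100 ng/ml. No member passed the adjusted p with the 2-fold requirement on the lower side (0 of 8 by limma, beside 0.101%), and 2 passed the adjusted p alone, Oas2 and Oasl2, beside 1.09%. At an unadjusted p under 0.05, 7 of 8 passed in limma, beside 14.5% of all tested probes, and by the methods' t-test, unadjusted and with 2-fold, 1 did (Oas1b). All 8 estimates were negative, with a median of -0.45 against 0.00. For Oas1b the estimate was -1.03, with a 95% interval from -1.52 to -0.54 and an adjusted p of 0.0518 in limma. For Oasl1 it was -0.44, with an interval from -1.01 to 0.12.

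In the interaction 2 probes passed the adjusted p alone on the lower side (Oasl1 and Oas1c), beside 5.31%, and 1 of them passed with 2-fold (Oasl1), beside 0.651%. The median of the 8 probes was -0.23, against 0.00. Members were split in sign: 5 were negative. Oas2 was positive at 0.66 ± 0.21, its fall with both ligands being smaller than the sum of its separate falls. The estimate was 0.36 ± 0.31 for Oas1b and 0.12 ± 0.12 for Oas1f, and both turned negative with slide as a term (-0.19 and -0.01), as did Oas1b with normexp background correction (-0.40) and Oas1f with scaling to the array median (-0.15).

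Across the 12 arrays the members tracked Oas2 to different degrees. The Pearson correlation with Oas2 was 0.967 for Oasl2, 0.96 for Oas1f and 0.911 for Oas1b. It was 0.79 for Oas1c, 0.691 for Oas1a, 0.625 for Oasl1 and 0.564 for Oas3. Oas1a was most like Oas3 (0.907). These 12 points share 4 treatments and 3 slides, so the values only describe the arrays. Among 13236 other genes with a tested probe and a symbol, the 10 most like Oas2 included Glg1 (0.991), Zfp975 (0.99), C3 and 9530028C05 (0.989 each), Cfap69 (0.988), Col16a1 (0.987), Slc26a11 (0.986), Ahdc1 (0.984) and Uba7 (0.982). C3 is the central complement component and Uba7 the activating enzyme for the ubiquitin-like protein Isg15. C3 had a log2 change from BSA of -2.20 with Rspo2, -3.11 with Wnt3a and -3.98 with the combination. Uba7 had a smaller span, with -0.80, -1.34 and -1.72.

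The other genes of the pathway were taken from a list of 37 genes, of which 35 were on the array by name and 33 were tested. With Rspo2, 1 of the 33 was called lower (Mx2), with Wnt3a 8 and with the combination 12, and 0 were called higher in any of these. The shares of all tested probes are those given for the family above. The median log2 change was -0.29, -0.56 and -0.68 in the same order. Mx1 is in the counts of 8 and 12, but its probe passed the filter through the BSA arrays alone. With only probes above background on all arrays, 7 were called with Wnt3a and 11 with the combination.

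**Figure D4:**
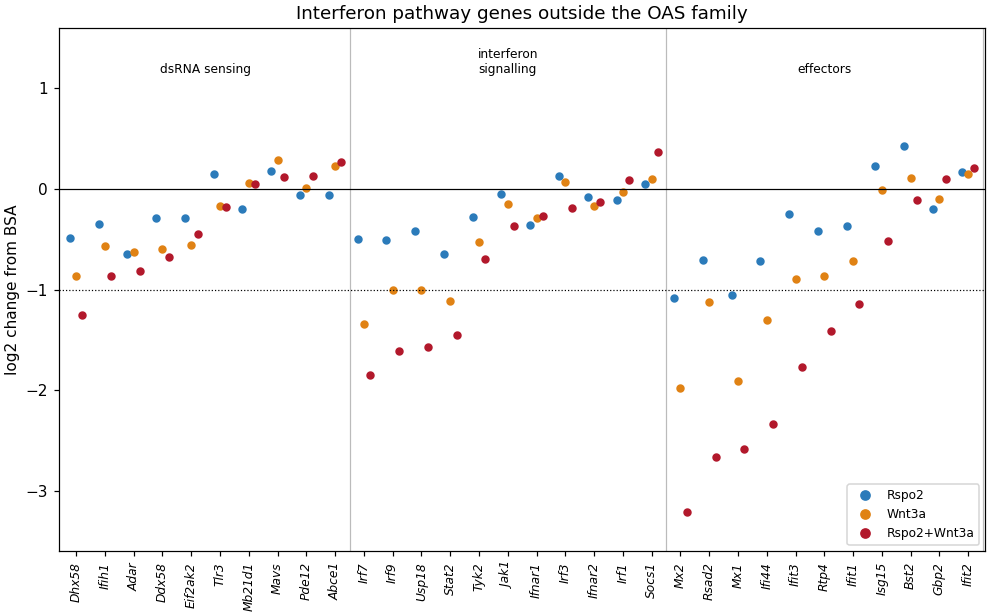
Log2 change from BSA (y axis) of the tested interferon pathway genes reported here outside the OAS family (x axis, grouped by role and ordered by the change with the combination); each point is the limma estimate over 12 arrays for Rspo2, Wnt3a or the combination, and the dotted line marks a 2-fold fall. The deepest falls are among the effectors, down to -3.21 for Mx2, while several sensing genes lie near 0.

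Genes around the OAS enzymes in RNA sensing had few calls. Abce1, an ATP-binding protein that recycles ribosomes, was 0.27 ± 0.08 above BSA with the combination, and Pde12, which degrades oligoadenylates, was 0.13 above it. Of the 10 tested genes in this role, 1 was called lower with the combination, Dhx58 at -1.25, which encodes the regulator LGP2 of RNA helicase sensing. The helicase sensors Ddx58 and Ifih1 had changes of -0.68 and -0.86, and Eif2ak2, the kinase PKR, had -0.45, all under 2-fold.

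Among the 12 tested genes of interferon signaling, 4 were called lower with the combination. They were Irf7 (-1.85), which drives interferon production, Irf9 (-1.61) and Stat2 (-1.45), parts of the complex that binds the ISRE, and Usp18 (-1.57), a feedback inhibitor. The receptor genes Ifnar1 and Ifnar2 had changes of -0.27 and -0.13, and Irf1 had 0.09. Ifnb1, the interferon itself, did not pass the filter. Among the 11 tested effectors, 7 were called lower: Mx2 (-3.21), Rsad2 (-2.66), Mx1 (-2.58), Ifi44 (-2.33), Ifit3 (-1.77), Rtp4 (-1.41) and Ifit1 (-1.14). The value of Mx1 and its place in this count are uncertain. Its probe was well above background on 3 of 3 BSA arrays but on 1 of 3 in each treated group. Effectors that were not called include Isg15 (-0.52), Bst2 (-0.11), Gbp2 (0.10) and Ifit2 (0.21).

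Against Wnt3a alone, 2 of the 33 genes were called lower with the combination, beside 0.334% of all tested probes. Rsad2, which encodes viperin, differed by -1.54 (limma, adjusted p = 0.00131) and Ifi44 by -1.02 (limma, adjusted p = 0.0238). Against Rspo2 alone 7 were called lower, beside 1.70% of all tested probes: Irf7, Irf9, Usp18, Mx2, Ifit3, Rsad2 and Ifi44. In the comparison of Wnt3a with Rspo2 and in the interaction, 0 of the 33 were called by limma. At an unadjusted p under 0.05 in limma, 17 and 9 of the 33 passed in these 2 comparisons, beside 14.5% and 29.3% of all tested probes, and the methods' t-test called 0 for Wnt3a against Rspo2, unadjusted and with 2-fold. With slide as a term the counts against BSA were 0 with Rspo2, 1 with Wnt3a and 7 with the combination, and with normexp background correction 0, 0 and 9, in place of 1, 8 and 12. The call of Mx2 with Rspo2 was also lost in 9 of the 12 fits that left out an array.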

How the data were processed

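C57MG cells of the 4 groups gave 12 arrays of a single color. The authors hybridized them and used Agilent Feature Extraction 9.5.3.1, per the labels; the deposited files hold a background-subtracted intensity of every spot and a flag for signals well above background. A second table that the authors deposited has ratio values (signal over the 75th percentile of the array), used here as an alternative. The paper's methods name GeneSpring GX as the authors' analysis software.

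The members and lists were chosen with earlier results of these data known. Members were found by the gene name of non-control spots. Uneven or outlying spots by the scanner's flags (1327 of 520548) were left out. The log2 mean over the spots of a probe was expressed relative to each array's 75th percentile. Testing required all 3 arrays of some group to pass the background flag. This number of arrays and the signal over background limit the precision. limma 3.58.1 in R 4.3.3 was fitted to all 12 arrays in 7 contrasts, with Benjamini-Hochberg adjustment over 22751 probes. A call needed an adjusted p under 0.05 and 2-fold. Errors are standard errors of limma unless given as SD. The named genes are all members, pathway genes with the role described or called in the combination against Wnt3a, and the 10 most like Oas2. A pathway gene was read from its brightest probe. A few genes of the pathway, marker and likeness lists enter the counts and are not reported here by name. Each pathway, marker and likeness value comes from the same fit or scale. The fit was tested on simulated data. Promoters, all by GRCm38.p6, were searched in python 3.11.15; figures used matplotlib 3.10.9. The 29 alternatives changed the background correction, scaling, filter, test or unit, added slide or replicate number as a term, or left out an array. The labels give groups the same replicate numbers, which were not treated as pairs in the main fit.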

Additional observations from a re-analysis of the deposited data

Results flagged for a closer look

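In the main limma fit, but not in several alternatives, the response of Oasl1 to Rspo2 differed between cells with and without Wnt3a. The log2 change with Rspo2 was 0.32 in the absence of Wnt3a and -1.19 in its presence, and the interaction was -1.5 (limma, adjusted p = 0.0322). The contrasts with BSA that make up the interaction were used to choose the family, so its p-values are a description only. All 3 Rspo2 arrays were above all 3 BSA arrays, and all 3 combination arrays were below all 3 Wnt3a arrays. Wnt3a array 2, at -2.09, stood above the other two Wnt3a arrays, at -3.14 and -3.02. The interaction ranged from -1.70 to -1.17 when each array was left out, with an adjusted p in limma from 0.0242 to 0.0783. With normexp background correction it was -1.35 (adjusted p = 0.689 in limma). The call was also lost with no filter on dim probes (limma, adjusted p = 0.113) and with a looser background flag (limma, adjusted p = 0.0541). With replicate number as a term the adjusted p in limma was 0.0597. With slide as a term the interaction was -1.20 (adjusted p = 0.307 in limma). The part of slide in the value was not tested beyond that fit.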

How the results depend on the processing

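Signal over background limits the precision of dim probes. Of the 4 members called, Oas2 and Oasl2 kept their calls against BSA with the combination under each of the 29 alternatives. Counts of called members are given in the order Rspo2, Wnt3a and the combination against BSA, combination against Wnt3a, combination against Rspo2, Wnt3a against Rspo2, and interaction, where they were 1, 2, 4, 1, 4, 0 and 1. Pathway genes called in the first 5 of these were 1, 8, 12, 2 and 7.

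Normexp background correction gave 0, 0, 2, 0, 1, 0 and 0 members and 0, 0, 9, 0 and 6 pathway genes. Slide as a term gave 1, 1, 2, 0, 2, 0 and 0 members and 0, 1, 7, 1 and 4 pathway genes. Over all tested probes that fit called 65, 146, 500, 162, 491, 49 and 151 in the same order. The methods' t-test with adjustment gave 0, 1, 3, 0, 1 and 0 members and 0, 3, 9, 0 and 3 pathway genes; unadjusted it gave 1 member for Wnt3a against Rspo2. It was not run for the interaction. With no 2-fold requirement the members were 3, 5, 8, 4, 8, 2 and 2 and the pathway genes 13, 20, 21, 7 and 17. Of all tested probes 5.92%, 13.2%, 17.3%, 2.49%, 9.81%, 1.09% and 5.31% then passed on the lower side. On the higher side 10.9%, 18.3%, 21.9%, 1.78%, 6.69%, 0.387% and 3.58% did, in the same order. Scaling to the array median gave 2 members in the combination against Wnt3a, and 0 and 3 pathway genes with Rspo2 and Wnt3a against BSA. With the 75th percentile over probes above background on all arrays, 3 members were called with Wnt3a and 1 for Wnt3a against Rspo2. Quantile normalization gave 4 pathway genes with Wnt3a. With no filter on dim probes, 0 members were called in the combination against Wnt3a and 0 in the interaction, and 0 pathway genes with Rspo2 and 1 in the combination against Wnt3a. The looser flag gave 0 members in the interaction and 0 pathway genes with Rspo2. Only probes above background on all arrays gave 1 member for Wnt3a against Rspo2. Fitting only the groups compared gave 0 members and 1 pathway gene in the combination against Wnt3a. Averaging the probes of a gene gave 1 member for Wnt3a against Rspo2, and 3 pathway genes with Rspo2 and 1 in the combination against Wnt3a. The cause of these differences was not tested.

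With each array left out, members called ranged from 0 to 1 in the combination against Wnt3a, 3 to 4 in the combination against Rspo2, 0 to 1 for Wnt3a against Rspo2 and 0 to 1 in the interaction. Pathway genes ranged from 0 to 1 with Rspo2, 5 to 8 with Wnt3a, 12 to 13 with the combination, 1 to 3 in the combination against Wnt3a and 7 to 9 in the combination against Rspo2. The replicate numbers were not treated as pairs in the main fit. Of 18 pairs of same-numbered arrays, 4 had a correlation of their deviations over 0.1, with a range from -0.444 to 0.279. Arrays of different numbers were not compared, so these values cannot settle whether the numbers pair the arrays. The fit with the replicate block gave 1 member for Wnt3a against Rspo2 (Oas1b), 0 in the interaction (Oasl1 at an adjusted p of 0.0597 in limma) and 0 pathway genes with Rspo2.

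Among tested differences, the sign turned in the interaction of Oas1b with normexp (-0.40) and slide as a term (-0.19), in that of Oas1f with array medians (-0.15) and slide as a term (-0.01), and for Oas3 in the combination against Wnt3a without combination array 3 (0.02), where leaving out each array gave a range from -0.21 to 0.02.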

Other observations

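Other symbols of the family were on the array outside the 9 genes. Oas1e, which was well above background on all 12 arrays, had levels of -3.36, -3.70 and -4.03 with BSA and -4.13, -3.81 and -3.62 with Rspo2. They were -4.18, -3.65 and -4.06 with Wnt3a and -3.68, -4.56 and -4.31 with the combination, and the 4 groups overlapped. The probe of Oas1d was well above background on 0 arrays. Of the 2 probes of Oas1h, one was so on 0 arrays and the other on 1, combination array 2, where it read -3.28 while the 2 other combination arrays read -7.84 and -7.71.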
